A study of Mus musculus with 3 samples.

Results

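T and natural killer (NK) cells were the subject of this account, and they made up 138 of the 38621 cells that passed the quality filters in 3 single-cell RNA-seq libraries of mouse retina. The cells were selected on measured transcripts: at least 5 unique molecular identifiers (UMIs, counted RNA molecules) summed over Cd3d, Cd3e, Cd3g, Trac, Trbc2 and Nkg7, with under 10 UMIs of the complement genes C1qa, C1qb and C1qc per 10000. The filters kept barcodes with at least 1000 detected genes, no more than 100000 UMIs and a mitochondrial share of up to 15%. The study compared Müller glia (MG), the main glia of the retina, after a cell cycle activating virus, and the labels call every library Muller glia. All mice were Glast-CreERT2; R26-CAG-LSL-Tdt, in which Cre driven from the glial Glast gene turns on tdTomato, and received tamoxifen at 75 mg/kg daily from postnatal day 20 (P20) by the labels, while the study's methods give another dose and start and another name for the control shRNA. The control mice received AAV7m8-GFAP-GFP-LacZsh into the vitreous at P28. The CCA (cell cycle activator) mice received AAV7m8-GFAP-cyclinD1-p27sh, mixed 9:1 with the control virus, on the same day. The CCANT mice received the CCA mixture and then NMDA, an excitotoxin that kills inner retinal neurons, at P35 and trichostatin A (TSA), a histone deacetylase inhibitor, at P37. Retinas were taken at P51 in all 3 groups, 2 to 4 retinas were pooled per library, and tdTomato-positive cells were sorted. The GFAP promoter of the viruses is meant for MG, so the T and NK cells described here were not its intended targets.

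T cells recognise antigen through a T cell receptor (TCR) held at the surface by the CD3 proteins. CD4 T cells mainly steer other immune cells through cytokines, CD8 T cells kill target cells with perforin and granzymes, and NK cells kill without a TCR. The healthy retina holds very few of them, because the blood-retina barrier keeps most lymphocytes out. Interferon gamma (IFN-γ, gene Ifng), the cytokine most closely tied to T and NK cells, acts on glia and neurons and switches on interferon-stimulated genes.

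Each group was 1 library, so the comparisons below have no replicate check and no p-value. Intervals in parentheses are exact 95% intervals of the counts (Poisson for UMIs, Clopper-Pearson for shares, conditional binomial for ratios). They cover counting error only, and neither the spread between mice nor that between cells. The 3 libraries held 12482 to 15923 barcodes and 219051219 to 224515457 UMIs each. The mice differed in sex between libraries: Y-linked UMIs were found in 77 of the 81 control T and NK cells, and Xist in 0. Xist was found in all 32 CCA cells with no Y-linked UMI, and the 25 CCANT cells held 17 with Xist and 15 with Y-linked UMIs, 9 of them with both. Sex and treatment therefore cannot be told apart. Among the cells kept in the authors' joint table, which are mainly MG, Cdkn1b (p27, the knockdown target) stood at 225.9, 84.4 and 105.7 CPM (UMIs of a gene per 1000000 UMIs of those cells), taking the libraries in the order control, CCA and CCANT.

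The number of T and NK cells was highest in the control library. There were 81 in control, 32 in CCA and 25 in CCANT. They made up 0.712% (0.566 to 0.884) of the 11374 control cells that passed the filters, 0.245% (0.168 to 0.346) of 13064 CCA cells and 0.176% (0.114 to 0.260) of 14183 CCANT cells. The intervals of control and either treated library did not overlap, and the CCA share was 0.344 times (0.221 to 0.524) and the CCANT share 0.248 times (0.151 to 0.392) that of control. Microglia and macrophages, counted as cells with 10 or more C1q UMIs per 10000, numbered 202, 163 and 189, so there were 40.1 (30.6 to 52.1), 19.6 (13.0 to 28.8) and 13.2 (8.35 to 20.1) T and NK cells per 100 of them. A count per 10000 sorted cells does not say how many T cells a retina held, because the tdTomato gate and the pooling decided which cells were loaded. A tdTomato UMI was found in 13, 3 and 6 of the T and NK cells, and their tdTomato level was 14.0, 7.26 and 23.6 CPM. The kept cells held 88.9, 138.4 and 97.2 CPM, but the authors kept only cells that expressed tdTomato. That filter set this difference in part. The authors' joint table kept 2 of the control cells and none of the others.

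Among the genes most enriched in the selected cells were several of T cells that the selection did not use. Of the 25 genes most enriched over the authors' kept cells, those that led were Cd3e, Icos, Cd3g, Cd40lg, Il7r, Ms4a4b, Ikzf3 and Cd3d, and the list also held Gimap3, Gimap4, Themis, Skap1, Cd2 and Ptprc. The sum over the 6 selecting genes, which the selection itself set and which is given as a description, ran from 6 to 201 UMIs in control, from 13 to 109 in CCA and from 12 to 71 in CCANT, with medians of 45, 40 and 35. Just inside the threshold, with 5 to 9 UMIs, lay 7 control cells, and just outside it, with 3 or 4 UMIs, lay 10 control cells, 0 CCA cells and 1 CCANT cell. The 4 given markers Cd3e, Cd3g, Trac and Nkg7 are all selecting genes, so their levels were fixed in part by the selection. They stood at 344 to 481, 581 to 820, 286 to 310 and 377 to 548 CPM, against at most 0.296 CPM for any of them in the kept cells. The selection also limited C1q, and no T or NK cell held more than 3 C1q UMIs. The 10 microglia and macrophage markers, C1q among them, summed to 45.4 to 69.4 CPM after leaving out the retina-rich barcodes described next. In the kept cells they summed to 43.8 to 55.8 CPM. No T or NK barcode occurred in another library, although 52 to 74 barcodes of all kinds were shared between pairs of libraries.

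Some barcodes held retinal RNA beside T cell RNA. Those with 100 or more UMIs per 10000 over MG, rod, and amacrine and bipolar markers are called mixed here, a threshold chosen after the data were seen. They numbered 16 of 81 in control, 2 of 32 in CCA and 6 of 25 in CCANT. Their median depth was 35503, 30546.5 and 15680.5 UMIs against 11930, 9318.5 and 8671 in the rest. Just outside the threshold the highest barcodes stood at 81.6, 54.3 and 99.1, and just inside it the lowest stood at 141, 235 and 171. The unmixed barcodes thus held some retinal RNA too. The rule had no ganglion cell markers, and 1 CCANT barcode of 47082 UMIs with neuronal RNA, described at the end, stayed among them. Values of CCANT without the mixed barcodes are therefore not free of neuronal RNA. Of the 19 unmixed CCANT cells, 5 held both Xist and Y-linked UMIs. The MG markers summed to 7338, 4504 and 8220 CPM over all T and NK cells and to 1066, 1036 and 2600 CPM without the mixed barcodes, against 26018.8 CPM in the control kept cells. The rod markers summed to 507, 1130 and 2024 CPM over all T and NK cells, against 315, 913 and 1701 CPM in the kept cells, and to 656, 1283 and 579 CPM without the mixed barcodes. Of these 8 rod genes 6 were at least 2-fold higher in CCA and 4 in CCANT (against 1.36% and 2.49% of all genes compared). In the cells that were not mixed, 4 of 7 were higher in CCA, and in CCANT 1 was higher and 2 lower, with the median log2 ratio turning from 1.79 to -0.56. Immediate early and stress genes, which respond to cell handling as well as to stimulation, summed to 1644, 1952 and 2360 CPM, and to 990, 1541 and 2203 CPM without the mixed barcodes, against 3946, 7542 and 7304 CPM in the kept cells. Of 9 compared, 1 (Ier2) was higher in CCANT and none passed in CCA, with medians of 0.58 and -0.04. Without the mixed cells, 6 of 8 were higher in CCANT and 1 in CCA, with medians of 1.42 and 0.62. Of all genes compared without the mixed cells, 248 of 4082 were higher in CCANT and 85 of 4078 in CCA. For Fos the levels were then 57.6, 99.3 and 287 CPM. The part of these genes and of retinal RNA in the results below was not tested. Counts of genes past 2-fold are given without the mixed barcodes as well where they differ. Without them the shares of T and NK cells were still lower in CCA, at 0.402 times control (0.252 to 0.628), and in CCANT, at 0.234 times (0.133 to 0.396).

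**Figure D1:**
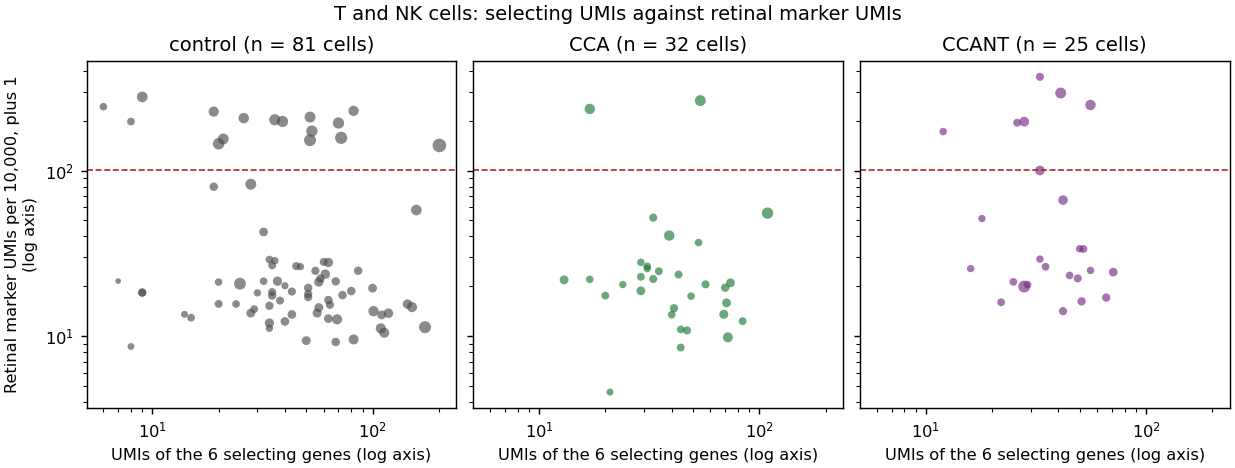
Each point is a T or NK cell, placed by the UMIs summed over the 6 selecting genes (horizontal, log scale) and by the retinal marker UMIs per 10000 plus 1 (vertical, log scale), with the dot area growing with the cell's total UMIs; 1 panel per library. The 16 control, 2 CCA and 6 CCANT cells above the dashed line at 100 are the mixed barcodes, and most of them are large dots.

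The co-receptor genes Cd4 (chromosome 6:124864692-124888221, minus strand, mm10) and Cd8a (chromosome 6:71373427-71379173, plus strand) split the cells. A UMI of Cd4 and none of Cd8a was found in 41 of 81 control cells (50.6%, 39.3 to 61.9), 20 of 32 CCA cells (62.5%, 43.7 to 78.9) and 20 of 25 CCANT cells (80.0%, 59.3 to 93.2). The reverse was found in 27 control cells (33.3%, 23.2 to 44.7), 10 CCA cells (31.3%, 16.1 to 50.0) and 0 of 25 CCANT cells, which allows up to 13.7% of cells with a Cd8a UMI at this depth. So Cd8a cells made up similar shares in control and CCA, and none was seen in CCANT. A cell with both genes was found only in control, as 1 barcode, and 12, 2 and 5 cells had neither. These Cd4 and Cd8a UMIs were far above free RNA: thinned to 2000 UMIs a cell, 20.2%, 30.9% and 31.8% of T and NK cells kept a Cd4 UMI and 21.5%, 18.1% and 0% a Cd8a UMI, against at most 0.0190% and 0.0153% of the kept cells. The median depth was 13328, 9528 and 9459 UMIs in the T and NK cells and 24235.5, 20710.5 and 20721.5 in the kept cells.

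The gene of the partner chain of Cd8a was also low in CCANT. Cd8a summed to 265 UMIs in control, 71 in CCA and 0 in CCANT, or 176 (156 to 199), 172 (134 to 217) and 0 CPM. Cd8b1 (chromosome 6:71322788-71337494, plus strand), which encodes the CD8 beta chain, gave 290, 66 and 3 UMIs in 27, 10 and 2 cells, or 193, 160 and 8.84 CPM. The log2 ratio of Cd8b1 in CCANT over control was -4.45 (-6.73 to -2.88). Per 10000 sorted cells, Cd4 cells numbered 36.05 (25.9 to 48.9), 15.3 (9.35 to 23.6) and 14.1 (8.61 to 21.8), and Cd8a cells 22.9 (14.9 to 33.5), 7.66 (3.67 to 14.1) and 0. The Cd4 cells were thus scarcer by much the same factor in both treated libraries, at 0.425 (0.236 to 0.742) and 0.391 (0.217 to 0.683) times control. The Cd8a cells stood at 0.335 times (0.144 to 0.718) control in CCA. In CCANT the count of 0 allows up to 2.60 per 10000 by its exact interval. Taking 3 cells for the count of 0 gives a value 10.8-fold below control, without the error of the control count. These densities, and the cells described from here on as Cd4 or Cd8a cells, leave aside the NK-like and Trdc cells below, so control held 26 Cd8a cells.

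Nkg7 (chromosome 7:43437073-43438249, plus strand), a granule protein of cytotoxic lymphocytes and a gene of the selection, had a UMI in 58 of 81 control cells, 20 of 32 CCA cells and 13 of 25 CCANT cells. Every one of the 36 Cd8a cells had a Nkg7 UMI, and 41 of the 81 Cd4 cells did. By library these were 22 of 41, 8 of 20 and 11 of 20 Cd4 cells. In the CCANT library, then, most of the Nkg7-positive cells were Cd4 cells, with no Cd8a cell present.

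**Figure D2:**
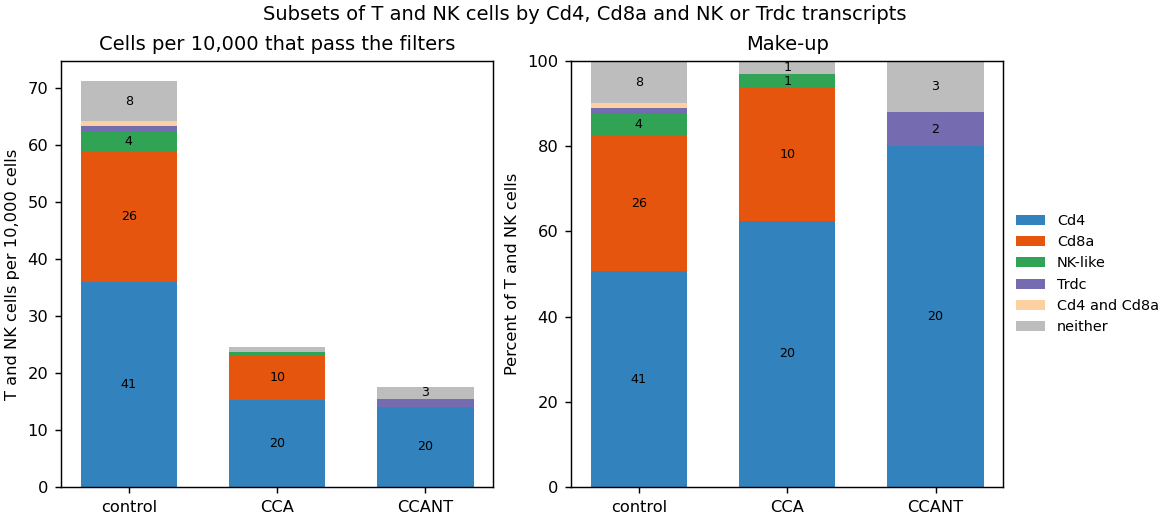
Stacked bars give the T and NK cells of each library by subset, as cells per 10000 cells that passed the filters (left) and as a percentage of the T and NK cells (right), with the number of cells written in the bars. Cd4 cells number 41, 20 and 20, and Cd8a cells 26, 10 and 0, in control, CCA and CCANT.

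NK-like cells, with no Cd3d, Cd3e or Cd3g UMI and at least 1 UMI of Ncr1 or Klrb1c, numbered 4 in control, 1 in CCA and 0 in CCANT. Ncr1 (the NK receptor NKp46) was part of this rule, and without CD3 a cell could pass the selection only through Nkg7, Trac and Trbc2. Their 7 to 21 UMIs of Nkg7 and 2 to 16 of Ncr1 are therefore a description only. NK cells with few Nkg7 UMIs could have been missed in these counts. All 5 carried 9 to 21 UMIs of Tyrobp and 8 to 26 of Fcer1g, adaptors of NK receptors, with 0 Trac UMIs. Granzyme A was high in 4 of them, at 192, 62, 41 and 20 UMIs, and absent from the fifth. Of the 4 control cells 2 were mixed barcodes. Only 1 of the 5 held an Ifng UMI, so NK-like cells contributed little of the Ifng measured.

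Cells with 2 or more UMIs of Trdc, the constant region of the gamma delta TCR, numbered 1 in control and 2 in CCANT. The CCANT pair carried 10 and 15 Trdc UMIs, 3 and 13 of Trdv4, and 0 of Trac. The control cell, with 21 Trdc UMIs, also held 19 UMIs of Cd8a, 6 of Trac and 477 of Ccl5, a different profile. Il17a had 0 UMIs in all 3 libraries. Foxp3, the transcription factor that marks regulatory T cells, was detected in control, where 7 of 81 cells (8.64%) held 2 to 11 UMIs of it. Of these 7, 3 were mixed barcodes, the barcode with both Cd4 and Cd8a among them. Ctla4 gave 5 to 47 UMIs in the 7 cells, but it was also found in 38 of 41 control Cd4 cells. Il2ra ranged from 0 to 19 UMIs in the 7 cells and Ikzf2 from 0 to 91. In CCA and CCANT 0 of 32 and 0 of 25 cells held a Foxp3 UMI. These counts allow up to 10.9% and 13.7% of cells with a UMI, so a difference from control was not detectable.

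The Cd4 and Cd8a cells differed in their effector genes, as the dot plot of subset genes shows. Over the 3 libraries, Cd40lg, the helper ligand for B cells and myeloid cells, had a UMI in 53 of 81 Cd4 cells and 0 of 36 Cd8a cells. Tbx21 (T-bet, the factor of type 1 responses) had one in 36 of 81 Cd4 and 30 of 36 Cd8a cells. Gata3 had one in 37 and 18, and Bcl6 (the follicular helper factor) in 38 and 12. Granzyme K was present in 7 Cd4 and 27 Cd8a cells and granzyme A in 2 and 19. Ifng was not restricted to either, with 28 of 81 Cd4 cells and 17 of 36 Cd8a cells holding a UMI. Both subsets carried the tissue homing receptor gene Cxcr6, in 54 and 34 cells.

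**Figure D3:**
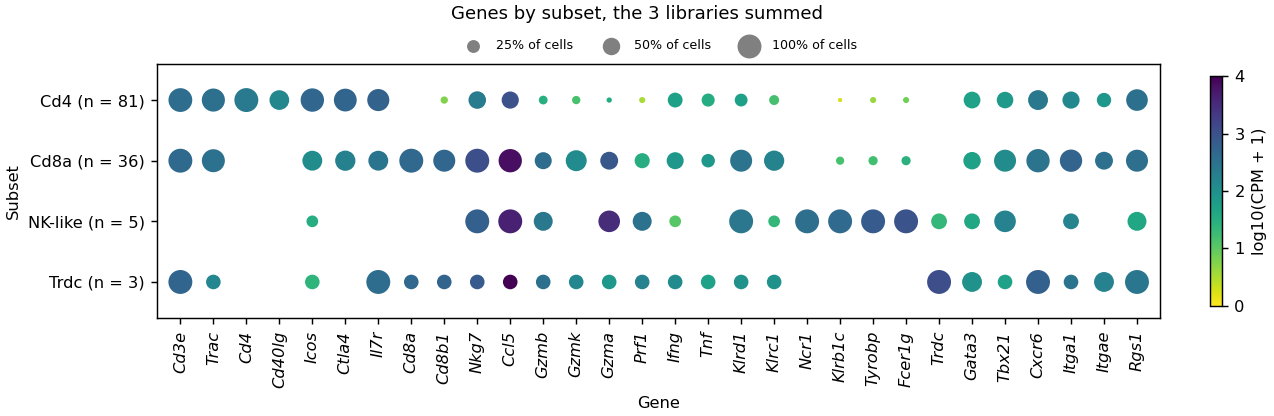
Dot plot of 30 genes (columns) in the 81 Cd4, 36 Cd8a, 5 NK-like and 3 Trdc cells of the 3 libraries summed (rows); dot size is the percentage of cells with a UMI and colour the level as log10 of CPM plus 1. Cd40lg is seen in Cd4 cells and absent from Cd8a cells, and Ncr1, part of the NK-like rule, is strong in NK-like cells only.

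Ifng (chromosome 10:118441046-118445892, plus strand) was nearly confined to the T and NK cells. Of 78, 43 and 17 Ifng UMIs in all barcodes of the control, CCA and CCANT libraries, 71, 37 and 17 lay in T and NK cells, or 91.0%, 86.1% and 100%. The C1q-high cells held 0, 1 and 0 Ifng UMIs and the authors' kept cells 2, 0 and 0. Per 10000 sorted cells the T and NK cells thus supplied 62.4 (48.8 to 78.7), 28.3 (19.9 to 39.0) and 11.99 (6.98 to 19.2) Ifng UMIs, a falling order. These UMIs lay in 25, 15 and 9 cells, with 14 of the 71 control UMIs in 1 cell. The intervals leave out this spread between cells and are therefore too narrow for a comparison of the libraries. The IFN-γ response gene Gbp2 took the same order in the kept cells, at 242, 107 and 44.6 CPM, and a link between the values was not tested.

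Per T or NK cell the order was different. Ifng levels were 47.2 (36.8 to 59.5), 89.5 (63.0 to 123) and 50.1 (29.2 to 80.2) CPM, with a UMI in 25 of 81, 15 of 32 and 9 of 25 cells, or in 7.75%, 14.4% and 12.9% after thinning to 2000 UMIs a cell. The log2 ratio was 0.92 (0.31 to 1.52) for CCA over control and 0.09 (-0.77 to 0.87) for CCANT over control. Without the mixed barcodes it was 0.39 and -0.10, from 60.8, 79.5 and 56.6 CPM. By subset, Ifng in Cd4 cells was 44.9, 54.4 and 60.0 CPM, and neither treated library was set apart, at 1.21 times (0.59 to 2.36) and 1.34 times (0.70 to 2.47) control. In Cd8a cells it was 48.8 CPM in control, from 9 of 26 cells, and 157 CPM in CCA, from 8 of 10 cells, a ratio of 3.22 (1.76 to 5.87) that was 2.21 (1.10 to 4.37) without the mixed barcodes.

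**Figure D4:**
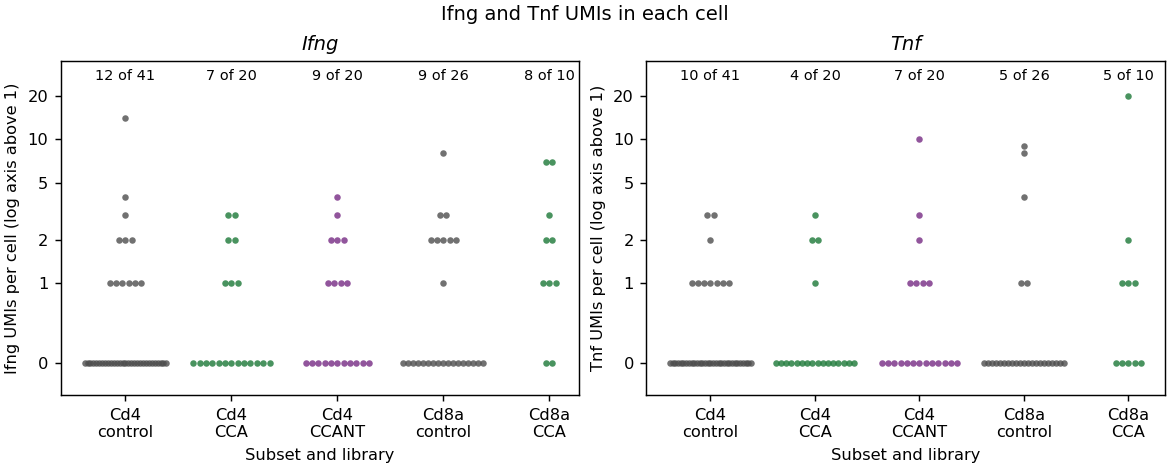
Ifng and Tnf UMIs in each Cd4 cell of the control, CCA and CCANT libraries and each Cd8a cell of the control and CCA libraries (1 point per cell), with the number of cells holding a UMI above each group. Ifng is seen in 8 of 10 CCA Cd8a cells against 9 of 26 control ones, and most cells with a UMI hold few.

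Tumor necrosis factor (Tnf, chromosome 17:35199381-35202007, minus strand) was higher in both treated libraries, with levels of 26.6 (19.0 to 36.2), 82.2 (57.0 to 115) and 56.0 (33.7 to 87.4) CPM. The log2 ratios were 1.63 (0.93 to 2.33) and 1.07 (0.20 to 1.90). These rested on few cells: 20 of the 34 CCA UMIs lay in 1 cell and 10 of the 19 CCANT UMIs in another, and without the top cell of each library the log2 ratios were 0.84 and 0.44. Without barcodes over 20000 UMIs the CCANT ratio turned to -0.61. Microglia also express Tnf, and 7.02% of control C1q-high cells held a UMI after thinning against 4.91% of control T and NK cells.

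Of the other cytokines, interleukins 10 and 21 were concentrated in few cells. Il10, an anti-inflammatory cytokine, gave 47 UMIs in 6 control cells, 36 in 3 CCA cells and 1 in CCANT, or 31.2, 87.1 and 2.95 CPM. Il21, a helper cytokine for B cells and CD8 T cells, gave 20 UMIs in 4 cells, 18 in 6 cells and 1 UMI, or 13.3, 43.5 and 2.95 CPM. The CCANT over control log2 ratio was -3.40 (-8.74 to -0.86) for Il10 and its interval included no change for Il21 (-2.17, -7.55 to 0.47). The members expressed in most cells were steady: Ltb (lymphotoxin beta) stood at 363, 431 and 351 CPM and Tgfb1 at 90.3, 87.1 and 103 CPM. Il4 and Il13, the type 2 cytokines, had 0 UMIs, and Il2 had 5, 3 and 3. Of the 18 cytokine genes 5 were abundant enough to be compared (50 CPM on average and 50 UMIs in all), and 1, Tnf, was at least 2-fold higher in each treated library. With the mixed barcodes left out, 7 were compared, 2 being higher in CCA and 1 higher and 1 lower in CCANT. Over all genes compared, 1.36% were at least 2-fold higher and 6.75% at least 2-fold lower in CCA, and 2.49% and 3.17% in CCANT, of 4252 and 4253 genes, with median log2 ratios of 0.05 and -0.02. Leaving out the mixed barcodes, 85 were higher and 140 lower in CCA, of 4078, and 248 and 222 in CCANT, of 4082. The CCANT counts of that kind still include the barcode of 47082 UMIs with neuronal RNA. These figures over all genes are the background for the counts of every gene list here.

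Among chemokines, Ccl5 (chromosome 11:83525778-83530518, minus strand), which draws T cells and monocytes, dominated. Its levels were 3638, 2750 and 2301 CPM, in 52, 18 and 15 cells. Its source differed in CCANT: Cd8a cells held 7550 CPM in control and 6043 in CCA, while Cd4 cells held 640, 552 and 2197 CPM in the 3 libraries. The CCANT Cd4 cells were thus 3.44 times (3.04 to 3.88) the control Cd4 cells, with Ccl5 in 13 of 20 cells against 19 of 41. Nkg7 stood at 395 CPM in them and at 165 in control, a description only since it was a gene of the selection, and the share of Cd4 cells with a Nkg7 UMI was much alike, as given above. Ccl4 stood at 165, 227 and 85.5 CPM. Xcl1, which draws cross-presenting dendritic cells, was at 146, 19.4 and 100 CPM, but 190 of its 220 control UMIs lay in a single mixed barcode of 80304 UMIs. Without the mixed barcodes Xcl1 was at 32.0, 19.9 and 148 CPM, so its order between control and CCANT reversed. The CCANT level rested on 34 UMIs in 3 cells, 19 of them in 1 cell. None of the 3 chemokines compared was 2-fold higher in CCA, 1 (Xcl1) was lower, and none passed 2-fold in CCANT. With the mixed barcodes left out the CCA call was lost and Xcl1 was called higher in CCANT.

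Granzyme A was lower in both treated libraries. Gzma (chromosome 13:113093825-113100981, minus strand), granzyme A, a serine protease of killer cells, gave 845 UMIs in 23 control cells, 42 in 4 CCA cells and 39 in 1 CCANT cell. Its level of 561 CPM (524 to 600), 102 (73.2 to 137) and 115 (81.7 to 157) gave log2 ratios of -2.47 (-2.95 to -2.02) and -2.29 (-2.79 to -1.82). Without the mixed barcodes they were -2.28 and -1.77, and without the top cell of each library the CCA value was -3.01. The difference was also there within the Cd8a cells, at 1028 CPM in control and 144 in CCA, with a UMI in 16 of 26 and 3 of 10 cells (ratio 0.14, 0.09 to 0.21). Gzmb (granzyme B) was at 194, 111 and 64.8 CPM and was called in CCANT but not in CCA (log2 ratios -1.58 and -0.80, or -2.85 and -0.97 without the mixed barcodes, where CCANT stood at 34.8 CPM), with 127 of its 292 control UMIs in 1 Cd8a cell. Within the Cd8a cells Gzmb had a UMI in 10 of 26 control and 7 of 10 CCA cells, and its ratio of 0.69 (0.48 to 0.95) was 1.08 (0.67 to 1.68) without the top cell of each library. Gzmk was at 58.5, 33.9 and 2.95 CPM. Prf1 (perforin) was at 37.2, 19.4 and 2.95 CPM, and its CCA value without mixed barcodes, 22.7, was close to the 21.3 of control. Fasl, the death receptor ligand, showed no such order, at 55.1, 67.7 and 67.8 CPM. Of 6 cytotoxic genes compared, 0 were 2-fold higher and 1 (Gzma) lower in CCA, and 0 were higher and 2 (Gzma, Gzmb) lower in CCANT. Of all genes compared, 6.75% were lower in CCA and 3.17% in CCANT. Since the CCANT library held no Cd8a and no NK-like cell, its summed values are those of Cd4 and other cells. The sums alone do not separate the number of killer cells from the granzyme per cell. Of the 845 control Gzma UMIs, 527 lay in Cd8a cells. Within Cd4 cells Gzma gave 4 UMIs in 1 of 41 control cells and 39 in 1 of 20 CCANT cells. Gzmb gave 20 UMIs in 5 of the control and 17 in 3 of the CCANT Cd4 cells.

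**Figure D5:**
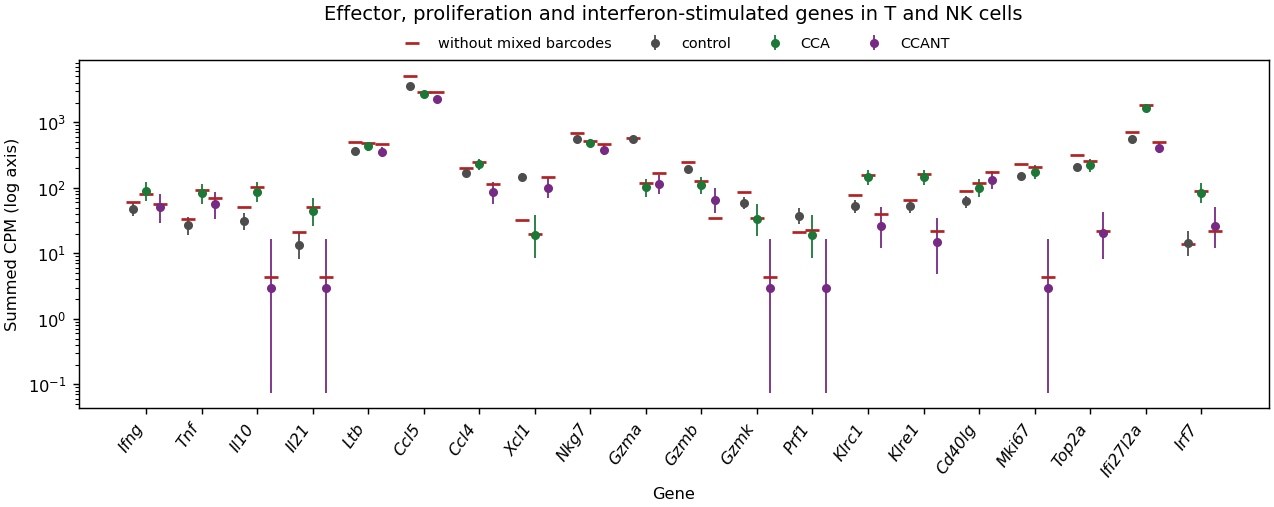
Summed level of 20 genes in the T and NK cells of each library, in CPM on a log axis, with exact 95% Poisson intervals and a red dash at the value without mixed barcodes. Mki67 and Gzmk lie far lower in CCANT than in control, where most Mki67 UMIs came from 5 cells. Gzma is lower in both treated libraries, and Ltb lies at nearly the same height in all 3. A dash is left out where the value is 0.

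Of the NK receptor genes compared, 2 were called higher in CCA, and the 1 called lower was the chemokine Xcl1. Klre1 and Klrc1 (the NKG2A chain), lectin-like receptors shared by NK cells and activated CD8 T cells, stood at 52.5, 145 and 14.7 CPM and at 51.8, 145 and 26.5 CPM. The CCA log2 ratios were 1.47 (0.96 to 1.97) and 1.49 (0.98 to 1.99), and 1.29 and 1.03 without the mixed barcodes. Klrc2 (the NKG2C chain), under the minimum level for a call, stood at 28.6, 65.3 and 20.6 CPM, with a CCA log2 ratio of 1.19 (0.44 to 1.92). Klrd1 (CD94, the partner of the NKG2 chains) stood at 159, 111 and 153 CPM, Klrb1c (NK1.1) at 37.2, 9.68 and 11.8, and Klra7 at 33.9, 4.84 and 32.4, while Klra4 gave 76 UMIs in control and 0 in the others. Single cells weighed on the last genes: 1 control cell held 36 of the Klra4 UMIs. For Klra7, 20 of 51 control UMIs lay in 1 cell, and all 11 CCANT UMIs in 1 cell. In the Cd8a cells Klrc1 was at 105 CPM in control and 360 in CCA (ratio 3.42, 2.30 to 5.07) and Klre1 at 66.3 and 301 (ratio 4.54, 2.85 to 7.29). In the same cells Klrk1 (NKG2D) was 2.40 times control and Ccr2, a receptor for inflammatory monocyte chemokines, 5.69 times (3.64 to 9.03), with a UMI in 9 of 26 control and 10 of 10 CCA cells. Ikzf2 (Helios) was lower in them, at 439 against 124 CPM, a ratio of 0.28 (0.17 to 0.45). In summed CPM the 10 CCA Cd8a cells thus carried more Ifng, Klre1, Klrc1 and Klrk1 RNA and less granzyme A RNA than the 26 control ones. The genes named for this subset were picked from the lists after their values were seen. Apart from Ifng, their Cd8a ratios are given only with the mixed barcodes included, which add MG RNA to the total UMIs. Without those barcodes control held 23 and CCA 9 Cd8a cells. Of 7 NK receptor genes compared, 2 were higher (Klre1, Klrc1) and 1 lower (Xcl1, kept on this list too) in CCA, and 2 were lower in CCANT (Klrk1, Klre1). Their median log2 ratio in CCA was 0.06, near the 0.05 of all genes compared. With the mixed barcodes left out, the Xcl1 call in CCA was lost and Xcl1 was higher in CCANT, at a log2 ratio of 2.21 that rested on 3 CCANT cells.

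Few genes of the TCR and its signaling passed 2-fold. None of the 7 TCR and CD3 genes passed 2-fold in either comparison, with median log2 ratios of 0.29 and 0.06, but 5 of them were used to choose the cells. Of 15 T cell signaling genes, 0 passed in CCA and 1, the kinase gene Txk, was lower in CCANT (84.4 against 35.4 CPM). Of the CD4 helper and regulatory genes, 7 were compared: Bcl6 was higher and Ikzf2 lower in CCA, and Cd40lg was higher in CCANT. The Bcl6 call rested on 1 CCA cell, which held 15 of the 42 UMIs, and without the top cell of each library its log2 ratio was 0.59. The Ikzf2 and Cd40lg calls were lost without the mixed barcodes, at log2 ratios of -0.96 and 0.94. Cd40lg stood at 61.8, 99.2 and 133 CPM over all cells, but at 124, 167 and 159 CPM within Cd4 cells, where the CCANT ratio was 1.28 (0.88 to 1.85). The costimulatory receptor Icos was lower in CCANT Cd4 cells, at 275 against 586 CPM (ratio 0.47, 0.36 to 0.60). The inhibitory receptor gene Lag3 was at 38.8 against 133 CPM there, but 62 of the 98 control UMIs lay in 1 cell, and the ratio of 0.29 was 0.68 (0.29 to 1.45) without the top cell of each library.

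The CCA Cd4 cells differed from the control ones in some factors of T cell differentiation, and those described here were picked after their values were seen. Others were not raised in this way: Tbx21 had a UMI in 23 of 41 control and 7 of 20 CCA Cd4 cells, and Gata3 in 17 and 9. Tox, a factor of chronically stimulated and helper T cells, was at 755 CPM in control and 1689 in CCA Cd4 cells (ratio 2.24, 1.96 to 2.55). Tcf7 (TCF-1, a factor of memory and follicular helper cells) was at 121 and 301 CPM (ratio 2.49, 1.80 to 3.43) and Bcl6 at 53.1 and 138 CPM (ratio 2.60, 1.58 to 4.24), with 15 of the 33 CCA Bcl6 UMIs in 1 cell. The chemokine receptor Ccr2 was lower in them, with a ratio of 0.29 (0.13 to 0.56), and Cxcr3 was higher, at 2.03 (1.30 to 3.13). In CCANT Cd4 cells Tox and Bcl6 stood at 808 and 52.9 CPM, near their control levels, while Tcf7 was at 74.1 CPM, 0.61 times control (0.36 to 0.99), or 0.76 times (0.45 to 1.25) without the mixed barcodes. Without the mixed barcodes the CCA ratios of Tox, Tcf7 and Bcl6 were 2.69, 2.21 and 2.85, and without the top cell of each library they were 1.95, 2.75 and 1.85 (0.97 to 3.41). Of 9 lineage factors compared over all T and NK cells, 1 (Bcl6, with the limit just given) was higher in CCA. Of all genes compared, 1.36% were higher in CCA and 2.49% in CCANT. Eomes was the 1 lineage factor called higher in CCANT, but all 46 of its UMIs lay in 1 barcode. With the mixed barcodes left out, 2 of 10 lineage factors were higher in CCA, and 1 was higher and 1 lower in CCANT.

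Genes of tissue-resident T cells were expressed in all 3 libraries. Cxcr6 stood at 212, 368 and 330 CPM, Rgs1, a brake on chemokine signaling, at 282, 423 and 407, Itga1 (the CD49a chain) at 272, 339 and 203 and Itgae (CD103) at 183, 106 and 109. Genes of circulating naive and central memory cells ranged widely in level. Ccr7 was at 7.31, 26.6 and 0 CPM and Klf2 at 52.5, 14.5 and 0, while Lef1 was at 152, 152 and 88.4, Tcf7 at 108, 201 and 67.8 and the interleukin 7 receptor gene Il7r at 435, 397 and 439. Of 6 residency genes compared only Cd69, an early activation and retention marker, passed 2-fold, at 51.8, 128 and 32.4 CPM, and without the mixed barcodes its CCA log2 ratio fell from 1.31 to 0.58. None of the 4 naive and central memory genes, 12 chemokine receptor and adhesion genes or 10 cytokine receptor genes passed 2-fold in CCA, and in CCANT only Il18rap of these was called, lower. With the mixed barcodes left out, 1 of 6 residency genes and 1 of 11 chemokine receptor and adhesion genes were lower in CCA, and 1 of 11 cytokine receptor genes was higher. Of 4 checkpoint genes, Lag3 was lower in CCANT, a call that was lost, just short of 2-fold, without the top cell of each library (28.2 against 56.3 CPM), and none passed in CCA. In the cells that were not mixed, 1 of 5 was higher and 1 lower in CCA.

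Dividing T cells were few and carried most of the cell cycle signal. Mki67 (chromosome 7:135689784-135716361, minus strand), a marker of cycling cells, had 10 or more UMIs in 5 control cells (68, 35, 34, 28 and 23 UMIs), 2 CCA cells (53 and 11) and 0 of 25 CCANT cells. The remaining cells held at most 5, 2 and 1 UMIs each. The cycling control cells were 1 Cd4, 2 Cd8a, 1 Trdc and 1 with neither co-receptor, and those of CCA were 1 Cd8a and 1 Cd4. Such cells made up 6.17% (2.03 to 13.8) of control and 0% (0 to 13.7) of CCANT cells, so a difference in their share was not detectable. Summed, Mki67 was at 150, 174 and 2.95 CPM and Top2a, a mitotic topoisomerase, at 209, 220 and 20.6 CPM. Of 6 proliferation genes compared, 1 (Pclaf) was 2-fold higher in CCA and 4 (Mki67, Top2a, Pclaf and Pcna) lower in CCANT, with medians of 0.14 and -2.14. Over all genes compared, 1.36% were higher in CCA and 3.17% lower in CCANT. The CCA sums rested on 1 cell: without the top cell of each library Mki67 was at 108 CPM in control and 50.8 in CCA, a log2 ratio of -1.10. The calls of Pclaf in CCA and Pcna in CCANT were lost the same way, at log2 ratios of 0.41 and -0.83. Leaving out the mixed barcodes gave Mki67 levels of 228, 204 and 4.35 CPM and Top2a levels of 322, 258 and 21.8 CPM, with the Pclaf call in CCA lost (0.63).

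Interferon-stimulated genes did not all take the same order across the libraries, and those described here were picked from the list after their values were seen. Over the 14 compared the median log2 ratio was 0.03 in CCA and -0.70 in CCANT, beside 0.05 and -0.02 for all genes. The IFN-γ response GTPases Gbp2, Igtp and Irgm1 were highest in control, at 109, 46.0 and 23.6, at 155, 77.4 and 64.8, and at 86.3, 65.3 and 26.5 CPM. Their CCANT log2 ratios were -2.21 (-3.44 to -1.20), -1.26 (-1.96 to -0.62) and -1.70 (-2.86 to -0.73), and -1.03, -0.39 and -0.69 without the mixed barcodes. Without the mixed barcodes they were at 53.4, 85.4 and 35.2 CPM in control. The control kept cells, mainly MG, held Gbp2 at 242 CPM, and the part of retinal RNA in these values was not tested. Others were highest in CCA. Ifi27l2a stood at 547, 1628 and 407 CPM against at most 12.4 in the kept cells, Irf7 at 14.6 (9.16 to 22.1), 84.7 (59.0 to 118) and 26.5 (12.1 to 50.3), under the minimum level for a call, and Isg15 at 59.8, 148 and 41.2. The CCA log2 ratios were 1.57 (1.42 to 1.72), 2.53 (1.72 to 3.37) and 1.30 (0.81 to 1.79), and 1.36, 2.67 and 2.29 without the mixed barcodes. The top CCA cell held 206 of 673 Ifi27l2a UMIs, and without the top cell of each library its log2 ratio was 1.23. The top CCA cell for Isg15 held 27 of 61 UMIs, and without the top cells its log2 ratio was 0.95, short of 2-fold. In Cd4 cells alone Irf7 was at 10.9 and 96.2 CPM, in 7 of 41 control and 11 of 20 CCA cells. Of 14 genes compared, 2 (Isg15 and Ifi27l2a) were higher and 1 (Gbp2) lower in CCA, and 6 were lower in CCANT, Gbp2, Igtp and Irgm1 among them. The shares over all genes were 1.36% higher and 6.75% lower in CCA, and 3.17% lower in CCANT. With the mixed barcodes left out, 12 were compared: 3 were higher and 0 lower in CCA, so the Gbp2 call was lost (-0.53), and 1 was higher and 1 lower in CCANT.

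Among genes more abundant in T and NK cells than in their library, the widest differences had mixed sources. Wls, a carrier needed for Wnt secretion, was at 29.2, 406 and 97.2 CPM, with a UMI in 19 of 81, 27 of 32 and 6 of 25 cells and a CCA log2 ratio of 3.80 (3.31 to 4.31). It was thus seen in most of the CCA cells and not in a few. The C1q-high cells also held Wls, at 100 to 121 CPM. By contrast Klra5, second in CCA at 25.2, 201 and 29.5 CPM, came from 3 CCA cells, with a log2 ratio of 2.99 that was 2.35 without the mixed barcodes (40.5 CPM in control). The rest of the 10 highest held Tnf, Ifi27l2a, Klrc1 and Klre1, described above, beside Sik1, Nsg2, Rnf19a and Rad51b. The CCA log2 ratios of these last genes were 1.73, 1.58, 1.40 and 1.40. The lowest in CCA after Xcl1 and Gzma were Cd7 (66.4, 19.4 and 94.3 CPM) and Serpinb6a (114, 38.7 and 67.8 CPM), an inhibitor of serine proteases. In CCANT, 8 of the 10 lowest were Cd8a, Cd8b1 and genes of cycling cells (Hist1h1b, Mki67, Hist1h2ap, Hist1h2ae, Top2a and Pclaf), and the top of the higher side (Ebf3, Clstn2, Sncg, Brinp1, Uchl1 and others) belonged to the single CCANT barcode that held the Eomes UMIs.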

How the data were processed

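The authors deposited 1 Cell Ranger 6.1.1 matrix of UMI counts per library (mm10 with tdTomato and GFP added, 32287 features, 10x Chromium v3.1; the 3′ reads were counted over exons and introns) and a joint table. The counts were used as the authors deposited them, and the joint table only for the barcodes of the 10926 cells kept by the authors. Members and gene lists were chosen with earlier results of these data known. T and NK cells, subsets and mixed barcodes were defined as given above. Counts were summed over the cells of a library and divided by the summed UMIs (1505416, 413412 and 339397) to give CPM. A large cell therefore weighs more. Ratios are of CPM, with exact conditional intervals at 95%, a count of 0 taking 3 counts as its bound. Genes were compared where their mean level reached 50 CPM and their sum 50 UMIs, and a 2-fold ratio was the rule of size. With 1 library per group no test was made. Shares across depths were set at 2000 UMIs a cell as the expected share over all draws. Python 3.11.15, numpy 2.4.6, scipy 1.17.1, pandas 2.3.3, matplotlib 3.10.9 and scanpy 1.11.5 (Scrublet at a rate of 5%) were used, and the ratio code was checked on simulated data. Gene coordinates come from the mm10 GENCODE annotation. Any member of the T and NK cell lists (28 lists and 252 genes in all, with the cell type markers) could be named, as could the 25 genes most enriched over the kept cells, the 10 highest and 10 lowest ratios of each comparison among genes at least 2-fold above their whole library (mitochondrial, sex-linked, transgene and variable genes left out), and the 5 most used Trbv and Trav genes. Alternatives are given in the closing section. Where genes overlap, intron counting can assign reads to the neighbour. Some genes of the lists are not reported here.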

Additional observations from a re-analysis of the deposited data

How the results depend on the processing

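Each alternative changed 1 choice. The selecting threshold (3 or 10 UMIs), the feature minimum (500 or 2000), a mitochondrial limit of 10%, a C1q limit of 2, selection without Nkg7 and median-of-ratios scaling (size factors 1.045 and 0.984 over 3350 genes) moved no cell share, Ifng level or count of genes by more than its counting interval or 1.5 times. In all 226 such values stayed and 26 moved, and of the single genes 411 stayed, 64 moved and 4 reversed. Without barcodes over 20000 UMIs the control share was 0.501% and control Ifng 65.2 CPM, 110 genes were 2-fold lower in CCA in place of 287, and the CCANT log2 ratios of Tnf and Eomes turned to -0.61 and -0.55. Without the cell with the most UMIs of the gene in each library, chosen after seeing the data, Il21 and Eomes had 0 UMIs in CCANT and their CCANT log2 ratios became bounds of at most 0.45 and -0.66. Without the mixed barcodes, an alternative chosen after seeing the data, control Ifng was 60.8 CPM, 140 genes were lower in CCA, and 248 were higher and 222 lower in CCANT in place of 106 and 135. The CCANT values then still held the barcode of 47082 UMIs with neuronal RNA described below. Averaging over cells left 184 genes lower in CCA. With at least 10 UMIs as the only minimum, 672 were higher and 1764 lower in CCA, and 1038 and 1247 in CCANT. With 2 UMIs of Cd4 or Cd8a required, the share with neither was 27.2% in control and 48.0% in CCANT, and the CCANT Cd4 share 52.0%. Thinned to 2000 UMIs, the Cd4 shares were 20.2%, 30.9% and 31.8%, those with neither 58.4%, 50.99% and 68.2%, the control Cd8a share 21.4% and the control Nkg7 share 47.9%. Per 100 C1q-high cells the T and NK cells numbered 40.1, 19.6 and 13.2. Scrublet called 1 of 11374 control barcodes (0.00879%) and so had not worked there, and results that need control were not run with it. In CCA it called 6.69% of barcodes, with 2 of the T and NK cells, and in CCANT 8.15%, with 0. No paired analysis was possible because each group was 1 library. The counts limit CCANT most, with 25 cells and 339397 UMIs: 0 UMIs there allows up to 10.9 CPM by the exact interval.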

Other observations

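T cell receptor variable genes were detected in part of the cells. A Trbv UMI was found in 27 control, 11 CCA and 6 CCANT cells, over 17 genes, and 2 cells held more than 1 Trbv gene. Trbv17 was found in 5 cells, all of control, followed by Trbv13-2, Trbv29 and Trbv15 in 4 cells each and Trbv13-1 in 3. A Trav UMI was found in 24, 6 and 10 cells over 26 genes, led by Trav13-1 in 5 cells, Trav4-4-dv10 and Trav3-3 in 4, and Trav12-1 and Trav13-4-dv7 in 3. Trav11, Trav11d and Trav1, which invariant T cells use, had 0 UMIs. No Trbv or Trav gene was held by more than 5 cells.

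Single barcodes joined T cell genes with those of other cell types. A CCANT barcode of 47082 UMIs held 10 Cd3e and 2 Cd4 UMIs with 46 of Eomes, 65 of Ebf3, 89 of Sncg and 53 of Stmn2, genes of retinal ganglion cells and other neurons, and its retinal marker level of 18.9 per 10000 was under the mixed threshold. A control barcode of 34053 UMIs held 8 Cd3e UMIs with 172 of Trpm1 and 18 of Grm6, genes of ON bipolar cells. A CCA barcode of 27367 UMIs held 7 Cd3e UMIs with 11 of Ms4a1, 6 of Cd79a and 24 of Igkc, genes of B cells. The B cell markers summed to 71.7, 143 and 35.4 CPM in control, CCA and CCANT and the dendritic cell markers to 126, 283 and 11.8 CPM, of which Cd74 and H2-Ab1 of that CCA barcode gave 76 and 27 UMIs. Neutrophil, mast cell and erythrocyte markers were at or below 5.89 CPM in every library.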
